A study of Mus musculus with 2 samples.

Results

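The Hox gene clusters were examined for open chromatin in mouse megakaryocytes, the large bone marrow cells that release platelets. The members were 38 protein-coding genes with symbols of Hoxa, Hoxb, Hoxc or Hoxd and a number, of 21755 coding genes in the GENCODE M21 annotation. They comprised 10 HoxA, 10 HoxB, 9 HoxC and 9 HoxD genes, on chromosomes 6, 11, 15 and 2 of mm10. Open regions were taken from the stretch between the first and the last listed gene of each letter and from 50 kb to each side of it. The data were ATAC-seq peak lists; in this assay a transposase inserts sequencing adapters where DNA is accessible. The series held 1 group of 2 biological replicates of primary megakaryocytes from adult male C57BL/6J mice aged 5 to 6 weeks, with 50000 cells in each sample. No genetic change or treatment is named in the labels. The 2 samples share 1 donor record, and no label says whether the cells were pooled, so an SD over n = 2 measures the spread between these samples, which may be technical. Sequencers are listed in the label of replicate 2 and not in that of replicate 1. The files hold no read counts, so the depth is unknown, and a region that is not listed was not detected at that depth.

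Hox genes encode homeodomain transcription factors that give cells their position along the body axis. In each cluster the paralogue groups 1 to 13 lie in order along the DNA, and this order follows that of their expression from head to tail. The silent state is kept by Polycomb complexes and the active state by Trithorax and MLL methyltransferases, while PBX and MEIS proteins bind DNA together with Hox proteins. In blood, Hoxa9, Hoxa10 and Hoxb4 are known from stem and progenitor cells, and Hoxa9 is a well-known target of MLL fusion proteins in leukaemia.

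The promoter sequences of a few members show where the open regions lie relative to the gene start. They are RefSeq sequences of GRCm38.p6, from 250 bases before to 50 bases after the start; 22 of the 38 members were matched in that table. Capitals mark bases inside a region open in both replicates. The first 3 had such a region within 500 bp of their start, and the last 2 had none. Hoxa10 and Hoxb4 were added after their values were seen, as open members known from blood. The sequences span chr6:52240805-52241104 on the minus strand (Hoxa10), chr11:96318017-96318316 on the plus strand (Hoxb4), chr2:74679308-74679607 on the plus strand (Hoxd11), chr6:52245761-52246060 on the minus strand (Hoxa11) and chr2:74762730-74763029 on the plus strand (Hoxd1).
Hoxa10: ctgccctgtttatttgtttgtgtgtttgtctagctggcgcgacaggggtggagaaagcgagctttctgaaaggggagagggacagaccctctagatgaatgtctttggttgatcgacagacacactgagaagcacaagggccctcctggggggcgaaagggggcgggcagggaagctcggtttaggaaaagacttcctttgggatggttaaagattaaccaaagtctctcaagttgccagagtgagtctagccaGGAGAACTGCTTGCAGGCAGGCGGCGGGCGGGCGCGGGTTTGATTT
Hoxb4: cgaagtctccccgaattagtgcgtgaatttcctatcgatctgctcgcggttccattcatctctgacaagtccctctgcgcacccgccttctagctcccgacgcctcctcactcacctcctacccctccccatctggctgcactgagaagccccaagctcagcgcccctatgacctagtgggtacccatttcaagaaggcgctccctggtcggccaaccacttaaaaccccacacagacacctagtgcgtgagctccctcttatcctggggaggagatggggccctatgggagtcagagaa
Hoxd11: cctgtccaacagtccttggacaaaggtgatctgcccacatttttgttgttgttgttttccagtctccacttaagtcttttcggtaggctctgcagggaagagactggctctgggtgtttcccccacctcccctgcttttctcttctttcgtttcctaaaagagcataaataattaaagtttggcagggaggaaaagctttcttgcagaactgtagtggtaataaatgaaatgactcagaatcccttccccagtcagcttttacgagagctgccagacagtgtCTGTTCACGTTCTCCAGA
Hoxa11: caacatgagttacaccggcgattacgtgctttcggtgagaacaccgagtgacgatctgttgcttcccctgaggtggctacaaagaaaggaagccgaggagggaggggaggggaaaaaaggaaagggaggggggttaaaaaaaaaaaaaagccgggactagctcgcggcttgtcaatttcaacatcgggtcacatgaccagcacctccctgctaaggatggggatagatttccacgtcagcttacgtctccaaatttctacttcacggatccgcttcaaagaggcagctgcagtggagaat
Hoxd1: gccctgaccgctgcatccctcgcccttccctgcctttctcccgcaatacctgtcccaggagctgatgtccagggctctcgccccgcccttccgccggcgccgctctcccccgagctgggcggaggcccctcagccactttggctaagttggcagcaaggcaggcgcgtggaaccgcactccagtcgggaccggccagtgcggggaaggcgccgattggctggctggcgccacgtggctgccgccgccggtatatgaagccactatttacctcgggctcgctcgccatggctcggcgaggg
In Hoxa10, 46 bases at the downstream end lay inside the open region, and in Hoxd11 18 bases did. The Hoxb4 window held no open base, since it lay between an open region upstream of it and another downstream of it. Hoxd1 had 29 CpG dinucleotides in its window, the most of the 5, and no open region. Hoxa11 had 15, Hoxb4 14, Hoxa10 12 and Hoxd11 4.

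For HoxA, HoxC and HoxD, the strongest open region inside the cluster that lay over 500 bp from every listed Hox start is shown next, as 201 bases of the plus strand centred on the summit. In HoxC and HoxD such a region was stronger than any promoter. Capitals mark matches to the motifs searched, on either strand. None of these windows overlapped an annotated exon. The intervals are chr6:52211651-52211851, chr15:102987507-102987707 and chr2:74673075-74673275, in the order of the lines.
HoxA region: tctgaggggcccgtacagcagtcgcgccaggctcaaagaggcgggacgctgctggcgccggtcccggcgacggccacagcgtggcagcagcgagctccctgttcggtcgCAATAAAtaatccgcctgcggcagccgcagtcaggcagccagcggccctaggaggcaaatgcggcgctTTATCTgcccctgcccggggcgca
HoxC region: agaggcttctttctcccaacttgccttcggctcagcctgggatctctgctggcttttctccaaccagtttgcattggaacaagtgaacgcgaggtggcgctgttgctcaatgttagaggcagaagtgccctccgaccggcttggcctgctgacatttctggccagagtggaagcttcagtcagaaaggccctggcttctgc
HoxD region: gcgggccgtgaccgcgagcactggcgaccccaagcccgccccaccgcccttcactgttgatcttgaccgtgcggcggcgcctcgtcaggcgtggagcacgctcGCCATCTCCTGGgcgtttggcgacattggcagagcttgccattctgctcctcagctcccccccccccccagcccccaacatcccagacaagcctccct
The HoxA sequence held a match to the CDX motif TTTATNG and another to the GATA motif AGATAA. The HoxD sequence held a match to the CTCF motif. No motif searched matched in the 201 bases shown for HoxC. A match to the ETS motif CCGGAA lay outside them, within 150 bp of the summit.

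Most Hox promoters were not open in these cells. A promoter was called open where a region found in both replicates lay within 500 bp of any annotated transcript start of the gene. This held for 8 of the 38 Hox genes (21.1%), against 13004 of all 21755 coding genes (59.8%). Under the stricter IDR-thresholded lists, which keep peaks that recur by the irreproducible discovery rate, it held for 5, without Hoxa9, Hoxc10 and Hoxd11, against 53.0% of coding genes. A further 3 Hox genes had a region in replicate 2 alone, and 27 had none in either replicate. Of all 21755 coding genes, 579 had a region in a replicate but no shared one, and 8172 had none in either. With 1 group and 2 samples, these shares are descriptions and were not tested. In a bulk sample, a region open in fewer cells and a region less open in each cell cannot be told apart.

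The values at promoters are the authors' fold enrichment, the height of a peak relative to its surroundings. Hoxa4, an anterior patterning gene, had 15.9-fold enrichment in replicate 1 and 16.1-fold in replicate 2 (16.0 ± 0.147, SD, n = 2). The region covered chr6:52191699-52192485, across the start of the gene, with its summit 203 bp upstream. Hoxa4 had the strongest open promoter of the 38 genes, and its replicates lay closer together than those of Hoxa10. Hoxa10, a posterior gene also known in blood progenitors, had 15.6-fold in replicate 1 and 11.7-fold in replicate 2 (13.6 ± 2.77). Its region, chr6:52240393-52240850, had its summit in an exon, 245 bp downstream of the nearest start. Hoxa4 lay above Hoxa10 in both replicates, closely in replicate 1, and their means differed by less than the SD of Hoxa10.

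Hoxb5, a middle gene of its cluster, had 13.03-fold in replicate 1 and 10.8-fold in replicate 2 (11.9 ± 1.57) at chr11:96303108-96303394. The Hoxa7 promoter had 10.2-fold in replicate 1 and 8.76-fold in replicate 2 (9.49 ± 1.04) at chr6:52221495-52221976. A weaker region at another Hoxa7 start, chr6:52217504-52217733, averaged 4.12-fold. Hoxb5 and Hoxa7 replicates did not overlap, although the lowest Hoxb5 value and the highest Hoxa7 value were close.

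Hoxb4, known for expanding blood stem cells when overexpressed, had 8.63-fold in replicate 1 and 7.71-fold in replicate 2 (8.17 ± 0.653) at chr11:96318470-96318763. This region began 203 bp downstream of the start, with its summit in an exon, and a weaker one upstream at chr11:96317685-96317992 averaged 3.50-fold. Hoxc10, a posterior gene of the trunk and hind limb, had 8.29-fold in replicate 1 and 7.13-fold in replicate 2 (7.71 ± 0.821) at chr15:102966459-102966732, which ended 64 bp upstream of the start. Hoxb4 lay above Hoxc10 in each replicate, although the ranges of their values overlapped and their means differed by less than either SD.

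The last 2 open promoters were weak. Hoxd11, a limb and kidney patterning gene, had 4.24-fold in replicate 1 and 4.35-fold in replicate 2 (4.29 ± 0.0774). Its region, chr2:74679590-74680175, began 33 bp downstream of the start, with its summit 508 bp downstream. Hoxa9 had 3.09-fold in replicate 1 and 3.42-fold in replicate 2 (3.26 ± 0.232) at chr6:52226004-52226292. The Hoxa9 region lay at an annotated transcript start 4.9 kb inside the gene, and no region lay within 500 bp of its 5′ end. In both genes the replicates lay close together, and every value was below those of the other 6 open promoters.

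Set among all open coding promoters, the open Hox promoters spanned a wide range. By fold enrichment, 87.0% of open coding promoters were weaker than that of Hoxa4, 69.6% weaker than Hoxa10 and 54.0% weaker than Hoxb5. The shares were 31.8% for Hoxa7, 21.3% for Hoxb4, 18.2% for Hoxc10, 2.07% for Hoxd11 and 0.215% for Hoxa9. The median fold enrichment was 8.83 over the 8 open Hox promoters and 11.5 over all open coding promoters. Ranked by −log10 p instead, Hoxa4 stood above 40.9% of open coding promoters, Hoxa10 above 26.4% and Hoxb5 above 19.2%, so the high places of these 3 genes depend on the measure.

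**Figure D1:**
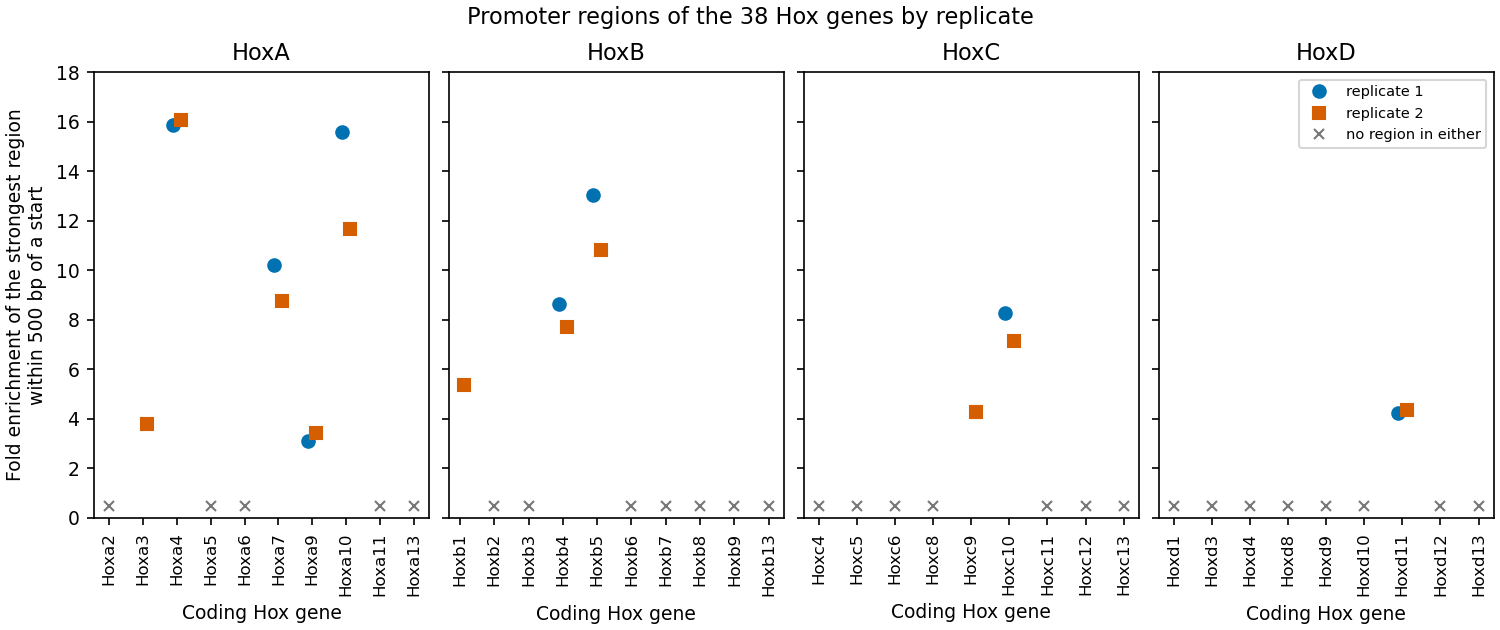
Fold enrichment (y axis) of the strongest region within 500 bp of a start of each Hox gene (x axis), by cluster; circles are replicate 1, squares replicate 2, and crosses near the bottom mark the 27 genes with no region in either replicate. Hoxa4 and Hoxa10 stand highest, and Hoxa3, Hoxb1 and Hoxc9 have a value in replicate 2 alone.

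The genes with a region in replicate 2 alone were Hoxa3 with 3.78-fold, Hoxb1 with 5.38-fold and Hoxc9 with 4.27-fold enrichment. Hoxb1 is a hindbrain gene of the anterior end, and its value lay above both Hoxd11 values, although replicate 1 listed no region there. In the authors' peak list of the pooled samples, all 3 had a promoter region, with 3.66-fold for Hoxa3, 4.98-fold for Hoxb1 and 4.07-fold for Hoxc9. The pooled list includes replicate 2, so it is not independent of the regions found there. That list also held a 4.82-fold region at a Hoxc5 start. Replicate 2 had open regions at 11 Hox promoters (28.9%; 61.3% of all coding genes), and replicate 1 at 8 (21.1%; 60.9% of all coding genes).

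The 27 genes without a promoter region in either replicate were Hoxa2, Hoxa5, Hoxa6, Hoxa11 and Hoxa13 in HoxA, and Hoxb2, Hoxb3, Hoxb6, Hoxb7, Hoxb8, Hoxb9 and Hoxb13 in HoxB. In HoxC they were Hoxc4, Hoxc5, Hoxc6, Hoxc8, Hoxc11, Hoxc12 and Hoxc13, and in HoxD they were Hoxd1, Hoxd3, Hoxd4, Hoxd8, Hoxd9, Hoxd10, Hoxd12 and Hoxd13. The nearest shared region lay a median of 7.31 kb from their starts, with a range of 0.596 to 62.5 kb, and over 10 kb away for 13 of them. Hoxa11, at 596 bp, and Hoxc5, at 711 bp, were the nearest misses outside the 500-bp window. The region near Hoxc5 is the one counted at the Hoxc10 promoter. Hoxb4, at 203 bp, was the open promoter whose region lay farthest from a start. Hoxd1 was the most remote, with 62.5 kb. Some starts are not independent, as those of Hoxd3 and Hoxd4 lie 2 bp apart and those of Hoxc5 and Hoxc10 647 bp apart.

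By cluster, the open promoters numbered 4 of 10 in HoxA, 2 of 10 in HoxB, 1 of 9 in HoxC and 1 of 9 in HoxD. By position along the clusters, they numbered 2 of 11 in paralogue groups 1 to 4, 2 of 11 in groups 5 to 8 and 4 of 16 in groups 9 to 13. The highest count and the strongest promoter were in HoxA, where Hoxa4, Hoxa7, Hoxa9 and Hoxa10 were open. In no paralogue group were members open in more than 1 cluster apart from group 4, with Hoxa4 and Hoxb4, and group 10, with Hoxa10 and Hoxc10.

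Hox promoters are rich in CpG dinucleotides, a property that goes with open promoters in general. The observed over expected CpG ratio around the 5′ end had a median of 0.665 in Hox genes and 0.558 in all coding genes. In the upper 5 deciles of this ratio, 7 of 30 Hox promoters were open (23.3%), against 9417 of 10877 coding genes (86.6%). In the lower 5 deciles, 1 of 8 Hox promoters was open, against 33.0% of coding genes. Among the 8501 coding genes at or above the Hox median, 89.1% were open. The Hox share was thus the lower one in both parts of the CpG range, although little can be read from the 8 Hox genes of the lower part. The ratio was taken at the 5′ end, while a promoter was called open at any start.

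**Figure D2:**
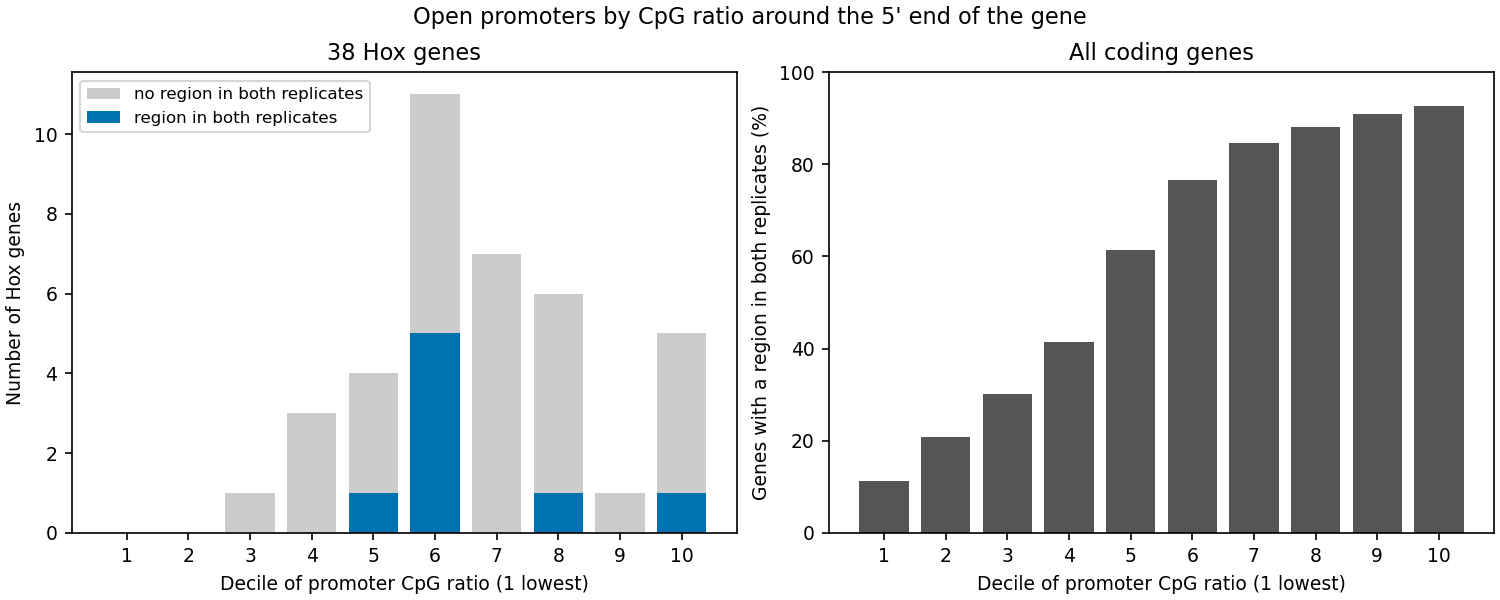
Left, number of Hox genes (y axis) in each decile of promoter CpG ratio (x axis, 1 lowest), in blue those open in both replicates and in grey the others; right, percent of all coding genes open in both replicates, by the same deciles. Open coding promoters increase from 11.2% in decile 1 to 92.6% in decile 10, while Hox genes, of which 30 lie in deciles 6 to 10, are open in 7 of those 30.

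Along the DNA, HoxA and HoxB held most of the open regions. The windows of all 4 clusters held 31 regions found in both replicates, of 69539 in the genome, with 36 in replicate 1 and 40 in replicate 2. Inside the clusters there were 8 shared regions in HoxA, 11 in HoxB, 2 in HoxC and 2 in HoxD. These 23 regions became 8 under the IDR-thresholded lists and 35 under the list of the pooled samples. No genome-wide number of regions was set beside these changes, so nothing particular to the clusters is read from them. The 23 correspond to 8.12 regions per 100 kb in HoxA, 6.32 in HoxB, 1.73 in HoxC and 2.07 in HoxD, against 2.64 in the genome. The clusters as a whole held 4.74 per 100 kb and the flanks 2.00. In covered length, 3.22% of HoxA, 2.07% of HoxB, 0.450% of HoxC and 0.940% of HoxD was open, against 1.43% of the genome.

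The HoxC flanks held no shared region in 100 kb, while the flanks of HoxA held 4, those of HoxB 2 and those of HoxD 2. A further 5 regions of the windows were listed in replicate 1 alone, at 3.85-fold to 5.04-fold, and 8 in replicate 2 alone, at 3.33-fold to 5.76-fold. These weak regions were 3 each in the HoxA, HoxB and HoxC windows and 4 in the HoxD window. The same windows held 12, 13, 2 and 4 shared regions. Over the genome, replicate 1 had 79800 regions and replicate 2 had 81707, and 69539 regions were shared. With so few regions, nothing is read from the split by cluster.

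**Figure D3:**
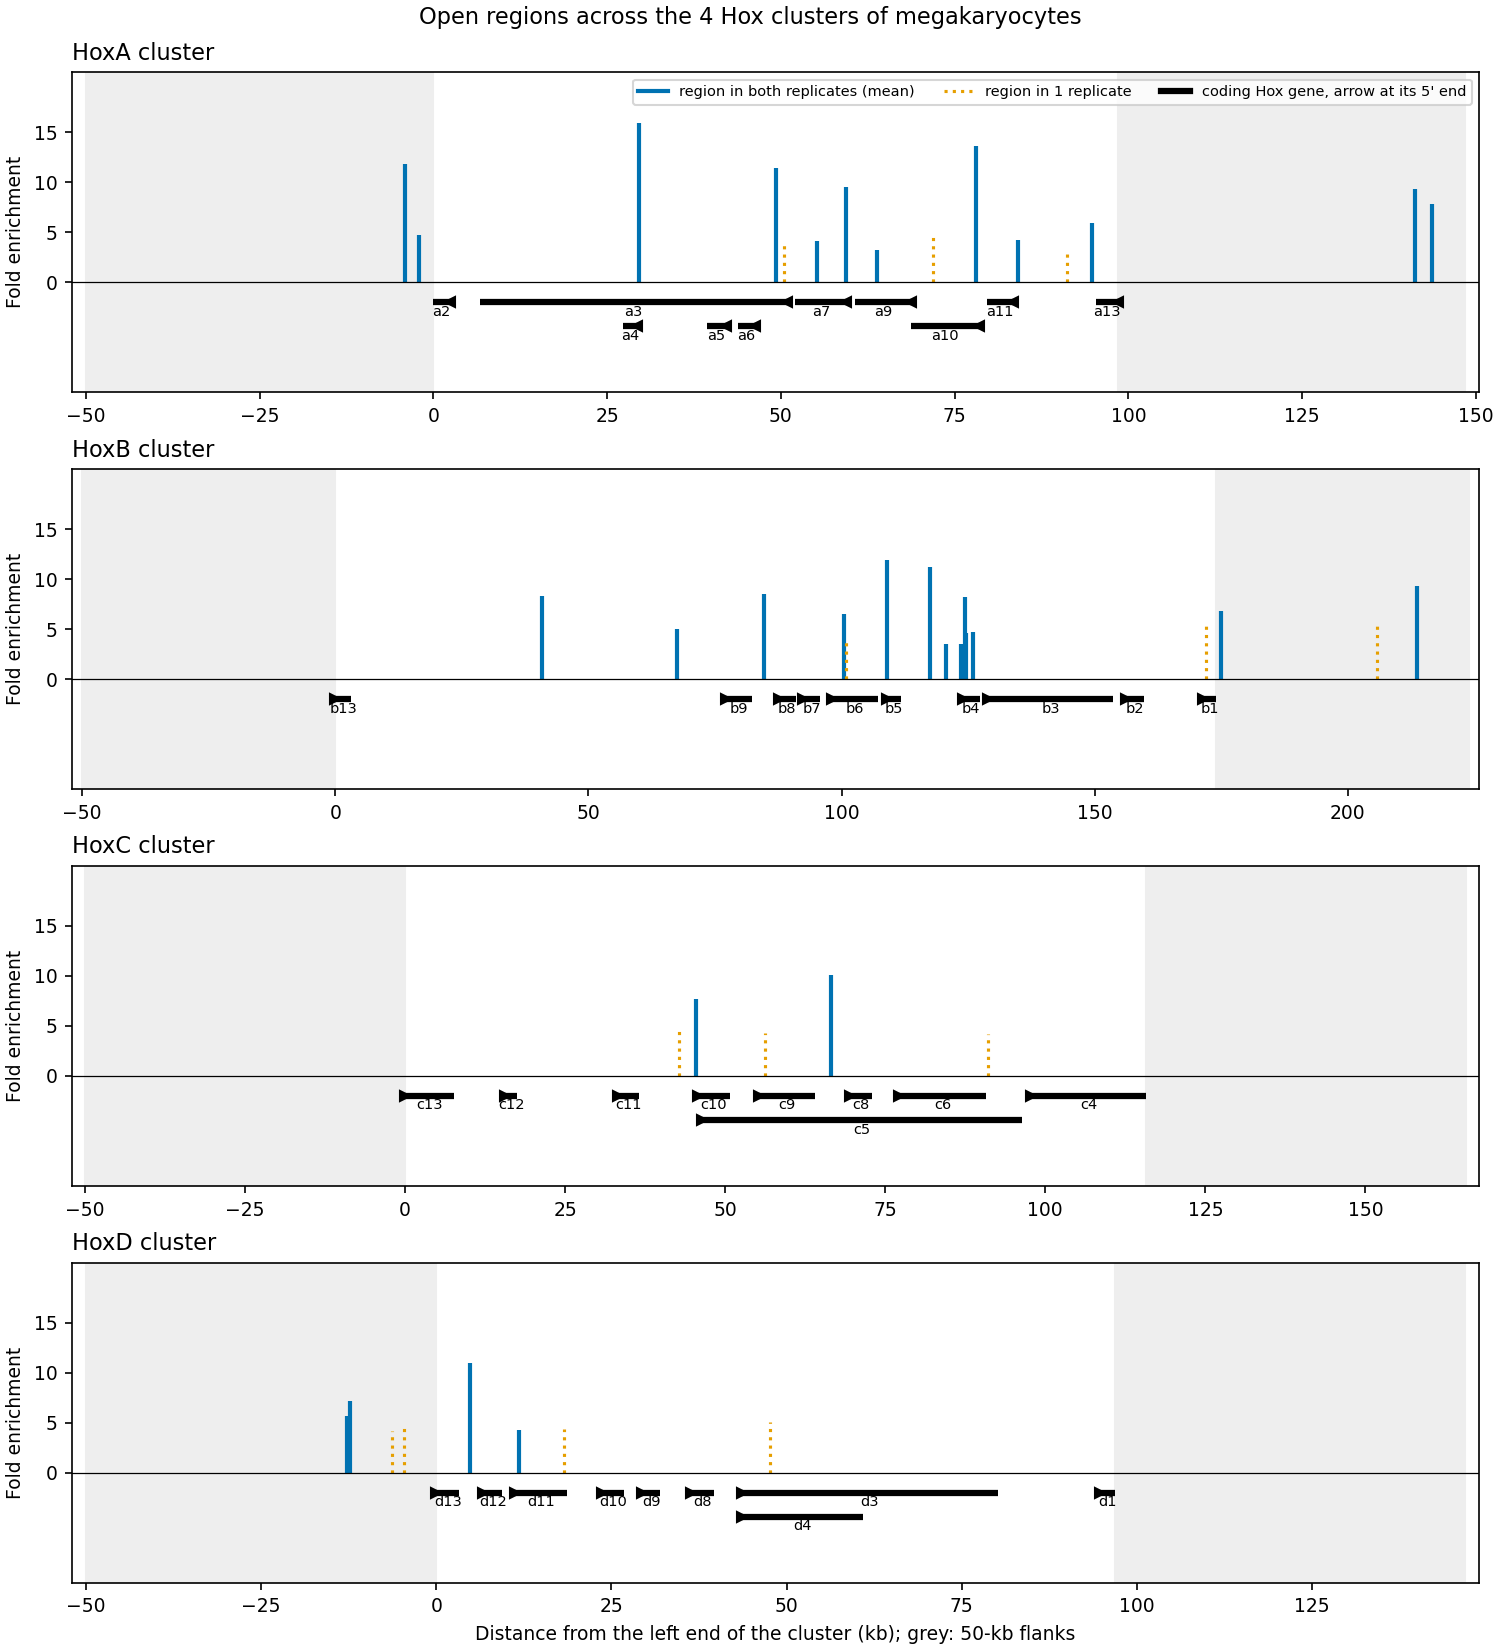
Fold enrichment (y axis) of open regions along each Hox cluster, by distance in kb from its left end (x axis); blue lines are regions of both replicates (mean), dotted lines regions of 1 replicate, black bars the coding genes with an arrow at the 5′ end, and grey bands the 50-kb flanks. HoxA and HoxB hold 8 and 11 shared regions inside the cluster, HoxC and HoxD 2 each.

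Long stretches of the clusters held no region open in both replicates. Measured within the ends of a cluster, which can only shorten them, the longest spanned 85.0 kb in HoxD. It took in the 5′ ends of Hoxd1, Hoxd3, Hoxd4, Hoxd8, Hoxd9 and Hoxd10, so that the shared regions of HoxD lay at its posterior end. In HoxC the longest spanned 49.1 kb, with the 5′ ends of Hoxc4, Hoxc6 and Hoxc8. In HoxB it spanned 47.9 kb, with those of Hoxb1, Hoxb2 and Hoxb3, and in HoxA 29.3 kb, with that of Hoxa2. Further starts of Hoxc5 and Hoxd11 lay in the HoxC and HoxD stretches. The median gap between shared regions in the genome was 8.88 kb. Of all gaps, 6.35% were longer than the HoxD stretch and 11.7% longer than the HoxC stretch. Both stretches were cut at the cluster end and the genome gaps were not, so these shares are upper limits. Beyond the ends, the HoxC flanks held no shared region in 50 kb, and the shared region nearest to the Hoxd1 start lay 62.5 kb away.

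Inside HoxA, the strongest region away from Hox starts lay between the starts of Hoxa6 and Hoxa3, at chr6:52211612-52211908, within an intron of Hoxa3 and of the antisense gene Hoxaas3. It had 11.4-fold enrichment in each replicate (11.4 ± 0.0344), above the Hoxa7 promoter. Inside the cluster, the regions at Hoxa4 and Hoxa10 had a higher mean than this one.

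In HoxD, the region chr2:74672976-74673299 between Hoxd13 and Hoxd12 had 11.5-fold in replicate 1 and 10.4-fold in replicate 2 (10.95 ± 0.794). This was above the Hoxd11 promoter in both replicates. In HoxC, an intronic region of Hoxc5 between Hoxc9 and Hoxc8, chr15:102987481-102987727, had 10.4-fold in replicate 1 and 9.88-fold in replicate 2 (10.1 ± 0.347). It was above the Hoxc10 promoter in both replicates, so in HoxC and HoxD the strongest region was not at a promoter.

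In the flanks, the region chr6:52303409-52303787, beyond Hoxa13, averaged 9.33 ± 1.04-fold, and chr11:96407615-96408024, beyond Hoxb1, averaged 9.30 ± 1.51-fold. In the HoxD flank, 2 regions lay in exons of Evx2, the homeobox gene next to Hoxd13, with 5.71-fold and 7.18-fold enrichment, and the promoter of Evx2 was not open. The 21 shared regions away from listed Hox starts lay in exons (8), introns (4) or between genes (9). They include the region beside the coding Hox gene that is not reported here. The other 10 (32.3%) lay at a listed Hox start. Of all shared regions, 22.4% lay at a coding start of any gene, so the 2 shares are not fully alike. Around Hoxb4, 4 regions lay between 96317685 and 96320340 of chromosome 11.

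Shared regions of the windows were about as strong as those elsewhere, and narrower. Their median fold enrichment was 7.71, against 7.52 over all shared regions, and 16 of 31 lay above 7.52. Their median width was 324 bp, against 462 bp, and 25 of 31 were narrower than that. At listed Hox starts the 10 regions had a median of 7.94-fold, elsewhere in the clusters 13 had 6.53-fold, and in the flanks 8 had 7.49-fold. Over the 31 regions, the larger value of the replicates was within 1.5 times the smaller in 31 of 31, against 96.4% of all shared regions, and 18 were higher in replicate 2.

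**Figure D4:**
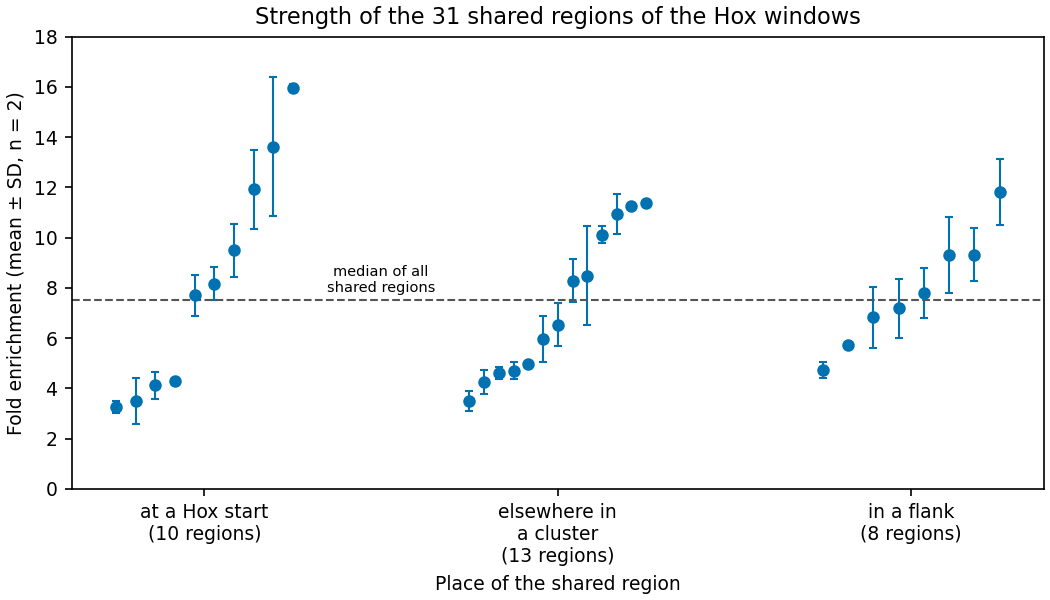
Fold enrichment (y axis, mean with SD bars, n = 2 replicates) of the 31 shared regions of the Hox windows, by place (x axis) and sorted within a place; the dashed line is the median of all shared regions, 7.52. Regions at Hox starts span 3.26 to 16.0, and each place has regions above and below the line.

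Motif matches were counted within 150 bp of the summits, on both strands, and a base may belong to matches of more than 1 motif. The core motif of CTCF, the insulator protein, was in 7 of 31 Hox regions (22.6%; 16.6% of all shared regions). The ETS motif CCGGAA was in 6 (19.4%; 10.3%) and the GATA motif AGATAA in 5 (16.1%; 12.5%). The RUNX motif TGTGGT was in 4 (12.9%; 27.8%), the MEIS motif TGACAG in 6 (19.4%; 22.2%) and the CDX motif TTTATNG in 1 (3.23%; 9.69%). The PBX-HOX motif TGATTNAT and the NFE2 motif were in 0 of 31, against 2.82% and 0.584% of all shared regions. GATA, RUNX and ETS factors act in the megakaryocyte lineage. GATA matches lay in 0 of the 10 regions at listed Hox starts (5.96% of all shared regions at coding starts) and in 5 of the 21 away from them (14.3% of all regions away from coding starts). RUNX matches lay in 0 of the 10 (15% at all coding starts) and in 4 of the 21 (31.5% away from them). CTCF matches lay in 3 and 4 of these regions (16.3% and 16.7%), ETS matches in 2 and 4 (24.7% and 6.21%) and MEIS matches in 3 and 3 (17.2% and 23.6%). With so few regions, nothing is read from these splits.

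Of 25 long non-coding genes in the windows, 4 had a shared region at a start, against 21.7% of all 12808 long non-coding genes. Of 7 miRNA genes 0 had one, against 11.4% of all 2196 miRNA genes. With so few genes, nothing is read from either count. Among the open ones were Hoxa11os, antisense to Hoxa11, with 4.27 ± 0.478-fold, 9530018H14Rik, between Hoxa11 and Hoxa13, with 5.97 ± 0.898-fold, and Gm53 in HoxB with 4.99-fold. Hottip, a transcript of the posterior end of HoxA, and Hotair, of HoxC, were not open, nor were Hoxaas2, Hoxaas3, Hoxb3os, Hoxb5os, Hoxd3os1, Haglr and Evx1os. The Hoxa11os region is the one 596 bp from the Hoxa11 start.

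The clusters also carry the miR-10 and miR-196 genes, which are shown because members with the same seed lie in different clusters. Capitals mark the seed, bases 2 to 8 of the mature RefSeq sequence.
miR-10a-5p (HoxB): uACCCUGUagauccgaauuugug
miR-10b-5p (HoxD): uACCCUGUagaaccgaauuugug
miR-196a-5p (HoxB and HoxC): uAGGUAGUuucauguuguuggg
miR-196b-5p (HoxA): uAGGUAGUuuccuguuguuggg
The miR-10 pair share a seed and differ by U12A, counted from the 5′ end of miR-10a-5p. The miR-196 sequences share another seed. Distances here run from the nearer end of the miRNA gene, not from its start. Mir10a, upstream of Hoxb4, lay 0.411 kb from the nearest shared region, against 45.9 kb for Mir10b, inside the long gap of HoxD. From its start, Mir10a lay 520 bp away, outside the 500-bp window. Mir196a-1 lay 3.30 kb, Mir196b 3.79 kb and Mir196a-2 6.62 kb from one.

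Genes of proteins that act with or on Hox genes were nearly all open at the promoter, but their promoters are CpG-rich, and 86.6% of all coding genes in the upper 5 CpG deciles were open. Of the TALE homeodomain cofactors, 11 of 11 were open, led by Pknox1 with 16.1 ± 0.603-fold, Pbx3 with 13.7 ± 0.443-fold and Tgif2 with 13.6 ± 0.429-fold (SD, n = 2). Meis1, a partner of Hoxa9, was singled out after its values were seen, with 9.01-fold in replicate 1 and 8.75-fold in replicate 2. Of the Trithorax and MLL genes, 17 of 18 were open, led by Mllt1 with 15.6 ± 1.70-fold, Rbbp5 with 14.3 ± 0.607-fold and Dpy30 with 13.8 ± 0.806-fold, while Mllt6 had a region in replicate 2 alone. Mllt1 encodes an elongation factor that is an MLL fusion partner, and Rbbp5 and Dpy30 encode core subunits of MLL complexes.

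Of the Polycomb genes, 27 of 28 were open, led by Mtf2 with 19.4 ± 0.386-fold, Ezh1 with 17.7 ± 1.30-fold and Phf1 with 16.5 ± 1.27-fold, and Pcgf2 was open in replicate 2 alone. Ezh1 encodes a histone H3 methyltransferase and Mtf2 and Phf1 accessory subunits of its complex. Of the genes of chromosome architecture, 10 of 10 were open, led by the cohesin genes Rad21 with 14.5 ± 0.594-fold and Smc3 with 13.3 ± 1.43-fold and by the cohesin release factor gene Wapl with 13.6 ± 0.201-fold. An open promoter says nothing of the amount of protein.

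Other patterning homeobox genes had low shares too. Of the caudal genes and the neighbours or relatives of the Hox clusters, 1 of 13 was open, Gbx2 with 3.93 ± 0.135-fold, and Cdx1, Cdx2, Cdx4, En1, En2 and Evx1 were among those with no region in either replicate. The caudal proteins Cdx1, Cdx2 and Cdx4 are upstream regulators of Hox genes. Of 52 other developmental homeobox genes, 13 (25%) were open, among them Alx1 with 10.3 ± 1.99-fold and Dlx4 with 9.87 ± 0.266-fold, while Alx4, Barx1, Barx2, Dlx2 and Dlx3 were among those with none. The Hox share of 21.1% lay between those of these 2 lists.

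**Figure D5:**
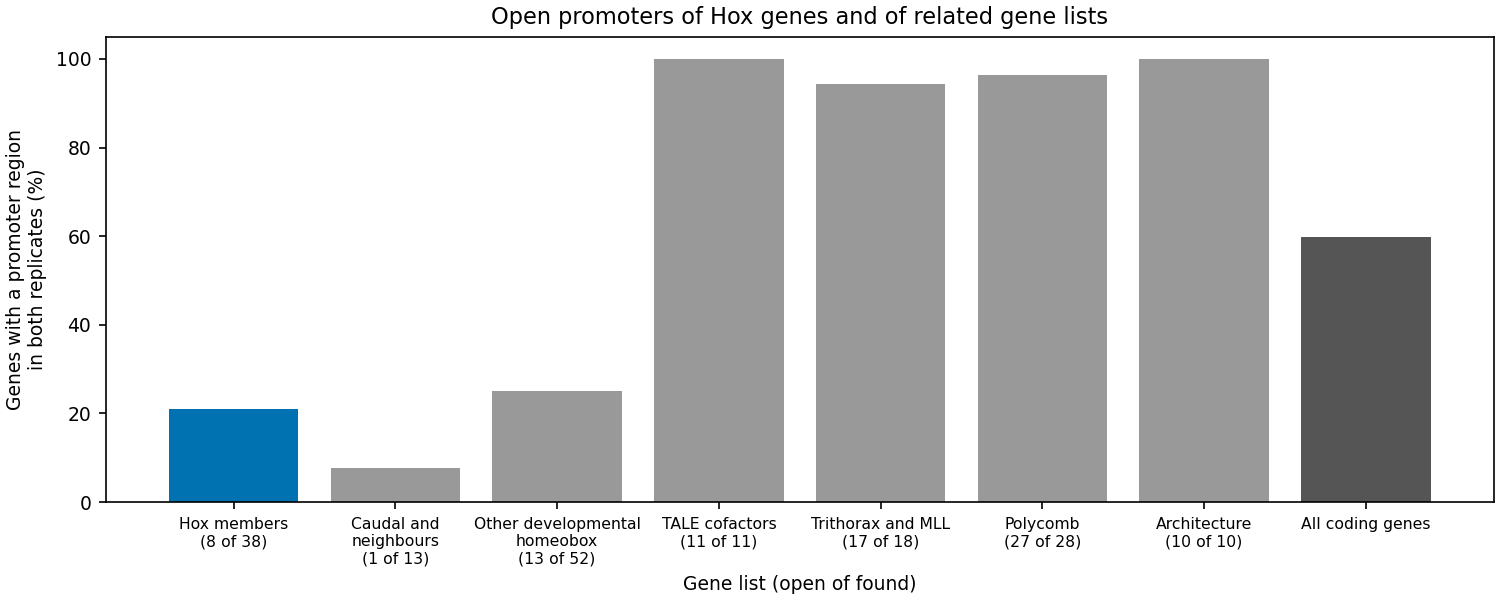
Percent of genes (y axis) with a promoter region in both replicates, for the Hox genes (blue), 6 related gene lists (grey) and all coding genes (dark), with open and found genes under each bar (x axis). Hox genes, at 21.1%, stand with the caudal and the other developmental homeobox genes, and the 4 lists of cofactors and regulators at 94.4% or more.

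The labelled cell type was checked against marker promoters. Of 17 megakaryocyte markers 7 were open, among them Itga2b with 13.5 ± 0.584-fold and Nfe2 with 9.89 ± 0.20-fold, while Gp1bb, Gp5, Gp6, Ppbp, Treml1 and Tubb1 had no region in either replicate. Of neutrophil markers 9 of 10 were open, of monocyte and macrophage markers 6 of 6, and of stem and progenitor markers 5 of 6. Of all coding genes 59.8% were open, but the share depends on the CpG ratio. The median ratio was 0.222 in the megakaryocyte, 0.176 in the neutrophil and 0.188 in the monocyte and macrophage list. These medians lie in CpG deciles 2 and 3, where 20.7% and 30.1% of coding genes were open. The stem and progenitor median, 0.678, lies in decile 7, where 84.7% were open. The part of such cells in the Hox values was not tested. Distal regions, over 1 kb from any annotated start, numbered a median of 1 within 50 kb of a Hox start (range 0 to 6; HoxB 5, HoxD 3, HoxA and HoxC 1 each), against 2 for all coding genes (range 0 to 21).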

How the data were processed

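Per the labels, 2 ATAC-seq samples of mouse megakaryocytes formed 1 group, and peaks were deposited on mm10, made from filtered alignments and an exclusion list. Which aligner and peak caller made them is not given in the sources used here. In each deposited peak list, column 7 is the authors' fold enrichment, a ratio, and columns 8 and 9 are the −log10 p-value and −log10 q-value, by the column order of the peak format, as the files have no header. No scaling between samples is stated, depth is unknown and no interval was computed.

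The pseudoreplicated peaks of each sample (108778 in replicate 1, 114523 in replicate 2) were merged where they overlapped by at least 1 bp, keeping the highest fold enrichment, on chromosomes 1 to 19 and X. Regions overlapping between replicates by 1 bp or more were joined as shared. Promoters were windows of 500 bp around GENCODE M21 transcript starts. Motifs were searched in GRCm38.p6 with pysam 0.24.0, and tables were handled in Python 3.11.15 with pandas 2.3.3. The code was checked on simulated peak lists with planted regions, and 5000 of 5000 shared promoter calls were as planted. This check does not measure the accuracy of the calls in these data. Named were all members, the 3 strongest regions of each window, the 5 strongest away from Hox starts, and of each other list the 3 strongest open genes and up to 6 without a region. Members and lists were chosen with earlier results of these data known. A further 1 coding gene with a Hox symbol, the region beside it, and some genes and a region that the naming rule would give are not reported here, though counts of lists, regions and non-coding genes include them or their surroundings. Alternatives were other peak lists, overlaps, thresholds and windows, and each replicate left out.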

Additional observations from a re-analysis of the deposited data

How the results depend on the processing

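Under the IDR-thresholded lists of each sample, which are stricter by their construction, 5 Hox promoters, 8 cluster regions and 4 flank regions were open in both replicates. Hoxa9, Hoxc10 and Hoxd11 lost their call, while 53.0% of all coding promoters were open. The replicated-peaks list of the pooled samples gave 12 Hox promoters, adding Hoxa3, Hoxb1, Hoxc5 and Hoxc9, with 35 cluster and 15 flank regions. There, 63.2% of all coding promoters were open. Flanks of 25 kb held 5 shared regions and flanks of 100 kb held 18, as their length sets. With 1 replicate left out, the counts were 8 to 11 promoters, 28 to 29 cluster regions and 8 to 11 flank regions. The share of all coding promoters was then 60.9% to 61.3%. Under the other alternatives the number of open Hox promoters was 6 to 10, with 54.4% to 61.4% of all coding promoters open. Every Hox count there was within 1.5 times that reported. Hoxa9 lost its call under the conservative list, the 4-fold minimum and the 5′ end as the only start, and Hoxd11 under the conservative list, 50% reciprocal overlap and coding transcript starts. Hoxb4 lost its call under a 200-bp window, and Hoxa11 and Hoxc5 were added under a 1000-bp window, Hoxc5 through the region at the Hoxc10 promoter. With −log10 p in place of fold enrichment, the place among open coding promoters moved for 6 of the 8 open Hox genes, and stayed for Hoxa7 and Hoxb4. Hoxa4, Hoxa7, Hoxa10 and Hoxb5 lost their call under none of these alternatives. The causes were not tested. No paired analysis was possible because there was 1 group. Weak regions are limited by the unknown depth.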
